A study of Mus musculus with 48 samples.

Results

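The nuclear genes for subunits of the 5 oxidative phosphorylation complexes were followed across livers of male and female mice that differed in diet and in the labelled loss of PPARγ from hepatocytes. The members were the protein-coding genes whose symbols begin as those of the NADH dehydrogenase (Nduf), succinate dehydrogenase (Sdh), cytochrome bc1 (Uqcr), cytochrome c oxidase (Cox4 to Cox8) and ATP synthase (Atp5) subunits do, and 82 of the 29221 genes counted met this rule, out of 17455 protein-coding genes. By complex they were 35 genes of complex I, 4 of complex II, 8 of complex III, 16 of complex IV and 17 of complex V, plus Ndufa4 and its paralog Ndufa4l2, which were kept apart because Ndufa4 is now placed in complex IV. The rule itself used no measured value, but it was chosen with earlier results of these data known.

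RNA of whole liver from 48 mice carrying a floxed Pparg gene was sequenced. The control groups received an adeno-associated virus (AAV8) with the thyroxine-binding globulin promoter (TBG), which is active in hepatocytes, and no Cre, and the groups labelled knockout received the same vector with Cre, so that other liver cells would keep the floxed gene. Females were fed a low fat (LF) diet for 34 weeks, a high fat (HF) diet for 34 weeks, or the HF diet for 18 weeks and then a diet rich in fat, cholesterol and fructose (HFCF) for 16 weeks, and each diet had 4 control and 4 labelled knockout mice. Males were fed the HF diet or the HF and then HFCF diet for the same times, with 6 control and 6 labelled knockout mice on each. The virus was given after 16 weeks of feeding. The labels describe the LF livers as healthy, the HF livers as steatotic and the HFCF livers as having non-alcoholic steatohepatitis.

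Oxidative phosphorylation makes most of the ATP of an aerobic cell. Complexes I and II pass electrons from NADH and succinate to ubiquinone, complex III passes them on to cytochrome c, complex IV reduces oxygen, and complex V, the ATP synthase, uses the proton gradient that complexes I, III and IV build. The subunits are encoded in the nucleus except for a core set made from the mitochondrial genome, and complex II has only nuclear subunits. Hepatocytes are rich in mitochondria, and in fatty liver they burn part of the incoming fatty acids through this chain. Transcription factors known to act on the nuclear genes include NRF1, GABPA (an ETS factor), YY1 and the estrogen-related receptors, whose shared coactivators are PGC-1α and PGC-1β.

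Promoter sequence was examined because the subunits changed in the same direction in the diet comparisons given later. All 82 members matched a RefSeq gene, and 67 had a promoter window of 300 bases, from 250 before to 50 after the start, in the RefSeq table (build GRCm38.p6). The NRF1 core CGCATGCG was in 9 of 67 windows (13.4%) against 2.07% of the 27025 genes with such a window. The ETS core CCGGAAG, on either strand as for all 4 motifs, was in 16 (23.9%, all genes 9.93%). The YY1 core AAGATGGCG was in 7 (10.4%, all genes 1.64%). The estrogen-related receptor site CAAGGTCA was in 4 (5.97%, all genes 1.76%). At least 1 of these motifs, none of which contains another, was in 28 windows (41.8%, all genes 14.4%). The windows of the members were also richer in CG dinucleotides, with a median of 19 in 300 bases against 7 for all genes, which bears on CG-containing motifs, and no base composition was matched here. The 4 stretches that follow are the parts before the start that lie outside every annotated exon, chosen among the 48 members with a window that were lower in both control females and labelled knockout males on HFCF (given later). Only 6 of those 48 had a match in such a stretch, and 1 member per complex is shown, complex IV having none. Each shows its match in capitals, read 5′ to 3′ on the strand of the gene.
Ndufa11 (complex I, chr17:56717686-56717761, plus strand, NRF1 match starting at -59 from the start): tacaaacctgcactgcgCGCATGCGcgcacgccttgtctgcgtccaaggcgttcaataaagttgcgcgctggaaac
Sdhd (complex II, chr9:50603850-50603909, minus strand, ETS match at -46): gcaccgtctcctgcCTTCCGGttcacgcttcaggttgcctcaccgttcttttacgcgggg
Uqcrh (complex III, chr4:116075072-116075268, minus strand, ETS match at -10): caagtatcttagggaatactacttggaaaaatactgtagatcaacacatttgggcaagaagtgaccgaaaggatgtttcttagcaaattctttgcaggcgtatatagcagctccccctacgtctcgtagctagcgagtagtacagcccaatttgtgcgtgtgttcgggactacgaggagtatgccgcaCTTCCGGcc
Atp5g3 (complex V, chr2:73911327-73911576, minus strand, estrogen-related receptor match at -52): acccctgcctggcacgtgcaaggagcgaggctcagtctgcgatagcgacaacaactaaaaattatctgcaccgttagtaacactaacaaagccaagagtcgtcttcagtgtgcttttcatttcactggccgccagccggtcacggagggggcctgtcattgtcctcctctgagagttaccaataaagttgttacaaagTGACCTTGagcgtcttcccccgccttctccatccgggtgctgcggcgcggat
A match describes the letters of a window and not binding, which was not measured.

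The libraries held 15338239 to 22072884 reads on genes, of which the members took 0.969% to 1.35%. Levels are given as CPM (counts scaled to a common library total), corrected by the trimmed mean of M values (TMM). Pparg itself showed no fall with the label: it measured 56.3 ± 6.18 CPM (SD, n = 6) in HFCF males labelled knockout against 32.3 ± 5.47 CPM (SD, n = 6) in their controls, and 45.8 ± 9.37 CPM (SD, n = 4) against 23.7 ± 1.46 CPM (SD, n = 4) in HFCF females. Reads over the part of the gene that Cre removes were not separated in the counts, so the term labelled knockout is used. Hepatocyte markers were abundant in every library (Alb, serum albumin, 26613 to 97166 CPM), and 6 markers of striated muscle and brown fat summed to at most 2.83 CPM. Libraries taken as standing apart were HFCF control male 1, HFCF labelled knockout female 1 and HF control female 1. They were picked after their values were seen and not by a fixed rule. Leaving any of them out therefore moves its group mean in a known direction. HFCF labelled knockout male 6, marked for complexes I and II in the results flagged below, was not among them. In HFCF control male 1 the members summed to 11887 CPM, against 8873 to 10019 in the other 5 of its group, and macrophage markers to 312 CPM against 492 to 693. In HFCF labelled knockout female 1 the members summed to 15016 CPM, against 9466 to 10551 in the other 3, and hepatocyte markers to 109724 CPM against 61110 to 77536. In HF control female 1 the members summed to 11152 CPM, against 12703 to 12777, and stellate cell markers to 699 CPM against 165 to 287. Counts of members called between HFCF and HF are given with and without these libraries. Correlations with length and some marker and list counts are given with all libraries only.

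On the HF diet the members together reached 11238 ± 519 CPM in control males (SD, n = 6) and 12349 ± 799 CPM in control females (SD, n = 4). On the HFCF diet they measured 9920 ± 1048 CPM in control males (n = 6), 9514 ± 658 CPM in males labelled knockout (n = 6) and 9674 ± 456 CPM in control females (n = 4). The group of females labelled knockout on HFCF had 11203 ± 2583 CPM (n = 4), with the spread set by its library 1. Females on LF had 11572 ± 662 CPM (controls) and 12023 ± 706 CPM (labelled knockout), HF males labelled knockout 11355 ± 600 CPM, and HF females labelled knockout 11785 ± 441 CPM. From high to low the order of means was HF control females, LF labelled knockout females, HF labelled knockout females, LF control females, HF labelled knockout males, HF control males, HFCF labelled knockout females, HFCF control males, HFCF control females and HFCF labelled knockout males. No neighbours in this order differed by more than the larger of their SDs. Of the 78 members with a mean over 1 CPM, 75 had their lowest group mean on HFCF, 48 of them in males labelled knockout, 19 in control females and 8 in control males. The highest group mean was in LF females labelled knockout for 43 members and in HF control females for 19. The ratio of a member's highest to its lowest group mean had a median of 1.41 and ran from 1.15 to 2.61, the last for Cox7a1.

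**Figure D1:**
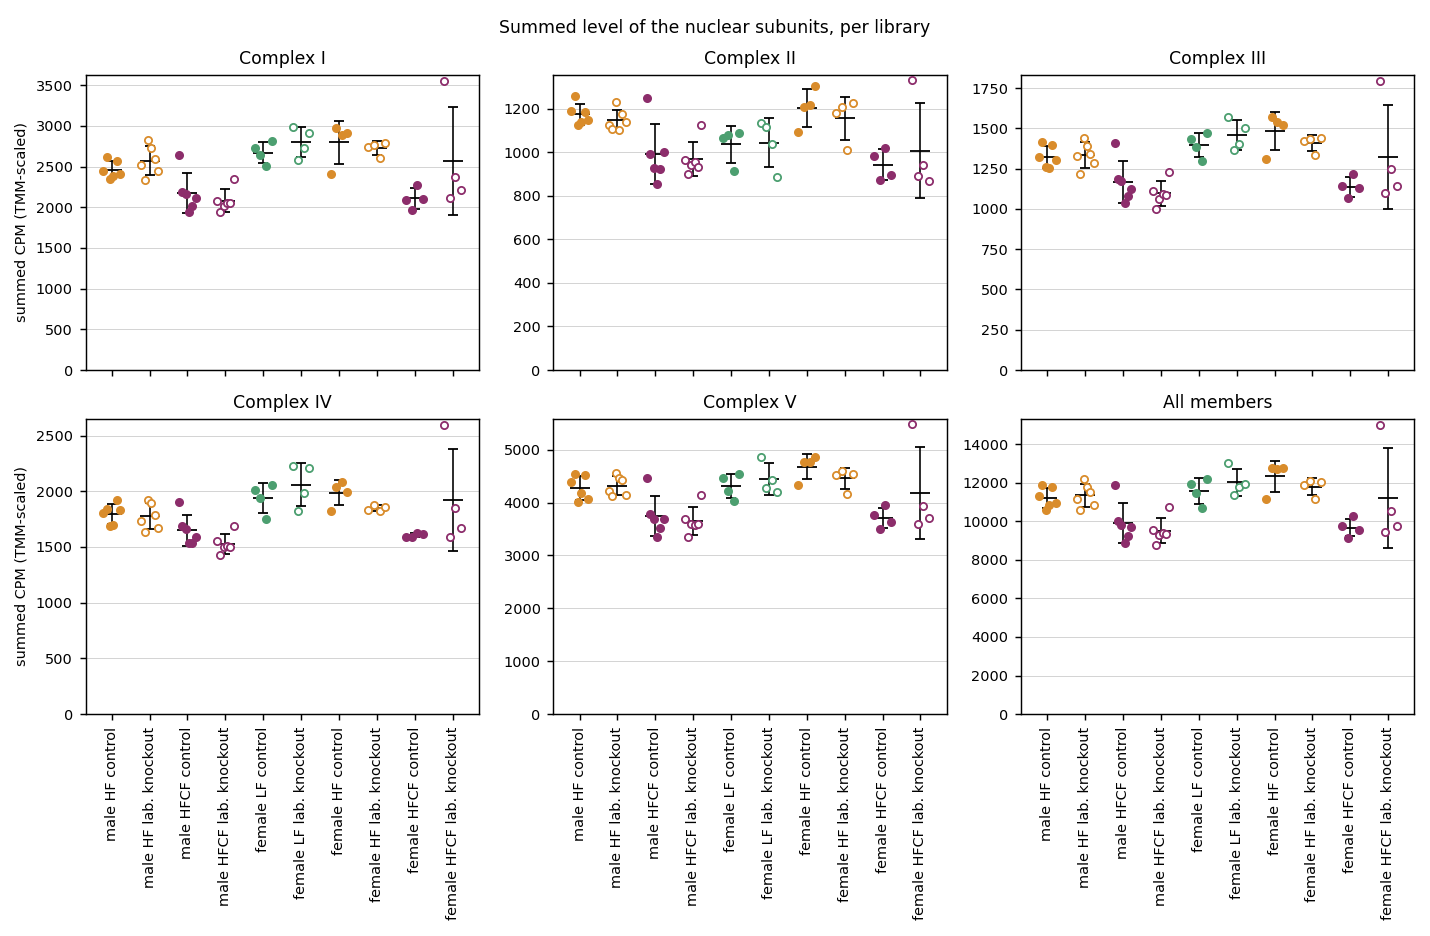
Summed CPM (TMM-scaled, vertical axis from 0) of the subunits of each complex and of all 82 members, with 1 point per library, filled for controls and open for labelled knockout (lab. knockout), orange for HF, purple for HFCF and green for LF; bars are mean ± SD. In each panel the 3 lowest means are those of control females, control males and labelled knockout males on HFCF, and HFCF labelled knockout female 1 is the highest point among all members, at 15016 CPM.

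Per kilobase of transcript, which allows genes to be compared, the members spanned a wide range of levels. Cox6a1, an accessory subunit of complex IV, was highest at 410.1 CPM per kilobase (mean of all libraries), followed by Cox8a at 347 and by Atp5a1 and Atp5b, the α and β subunits of the ATP synthase catalytic head, at 310.0 and 277. Cox4i1, the common isoform of the complex IV regulatory subunit 4, reached 222. Within complex I the highest was Ndufa2, an accessory subunit, at 118 CPM per kilobase and the lowest Ndufb2 at 1.27, which overlaps the more heavily counted Braf, and the libraries were not strand specific. Within complex II, Sdhd, a membrane anchor, was highest at 144 and Sdhc, the other anchor, lowest at 54.3. In complex III the range ran from 61.3 for Uqcrc1, a core protein, to 176 for Uqcr11, a small accessory subunit. Atp5s, a coupling factor B protein, had 3.38 CPM per kilobase, the lowest of complex V. Annotated lengths include long untranslated ends for some genes, so these levels order genes only roughly.

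The first question was how the step from HF to HFCF feeding moved these genes in control females. All 78 members tested had a negative log2 fold change, and 61 were called lower at an adjusted p under 0.05 (edgeR's quasi-likelihood test, Benjamini-Hochberg over all genes tested), where 13.8% of all genes were called lower. None was called higher. The median log2 fold change of the members was -0.34, while that of all genes was -0.02. Every HFCF library lay below every HF library for 58 of the 78, against 14.9% of all genes. The called members were 29 of 35 in complex I (median -0.39), 3 of 4 in complex II (-0.40), 8 of 8 in complex III (-0.36), 7 of 12 tested in complex IV (-0.24) and 13 of 17 in complex V (-0.31), plus Ndufa4.

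Ndufb10 and Ndufs3 of complex I had the largest falls. Ndufs3 (ENSMUSG00000005510, GRCm38 chromosome 2, 90894634 to 90904827, minus strand), a core subunit of the arm that carries the iron-sulfur clusters, measured 91.02, 114, 112 and 106 CPM in the HF control females and 65.7, 61.8, 77.2 and 69.8 CPM in the HFCF control females. The groups did not overlap, and the log2 fold change was -0.60 ± 0.10 (SE, adjusted p = 0.00561, edgeR). Ndufb10, an accessory subunit of the membrane arm, measured 91.1, 130.1, 126 and 122 CPM on HF and 72.4, 71.7, 85.9 and 72.8 CPM on HFCF. Here too all HFCF values were below all HF values, HF control female 1 being the lowest of its group, and the level fell by 34.4% (log2 -0.61 ± 0.12, adjusted p = 0.00814, edgeR). Other complex I members that fell were Ndufb4 (log2 -0.54), Ndufs7 (-0.52), a core subunit next to the quinone site, and Ndufb11 (-0.50). In the 8 fits that left out 1 library, the call of Ndufs7 held in only 2. Those of Ndufb4, Ndufb11, Ndufb10 and Ndufs3 held in all 8.

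In complex II, Sdhd, which anchors succinate dehydrogenase in the inner membrane, measured 187, 213, 213 and 205 CPM on HF and 157, 139.8, 159.8 and 142 CPM on HFCF, without overlap (log2 -0.43 ± 0.08, adjusted p = 0.00747, edgeR). Sdha, the flavoprotein of complex II and the one member of complex II not called, had a log2 fold change of -0.25 ± 0.09 (adjusted p = 0.0524, edgeR). Uqcrb, a ubiquinone-binding subunit of complex III, measured 85.1, 112, 109 and 104 CPM on HF and 79.7, 71.7, 74.8 and 77.3 CPM on HFCF (log2 -0.41 ± 0.09, adjusted p = 0.0114, edgeR). Both Uqcrc1 (-0.46) and Uqcrfs1 (-0.40), the Rieske iron-sulfur protein, were also lower. In complex IV, Cox6c measured 158, 194, 196 and 178 CPM on HF and 136, 132, 128 and 139 CPM on HFCF, again with all HFCF libraries below all HF libraries (log2 -0.42 ± 0.08, adjusted p = 0.00869, edgeR). Part of the Cox6c locus overlaps Vps13b, and the counting could not use strand. In complex V the smallest p was that of Atp5k, the small subunit e that takes part in dimer formation. It measured 41.1, 51.9, 47.97 and 49.7 CPM on HF and 35.4, 30.8, 27.5 and 31.8 CPM on HFCF, and fell by 33.2% (log2 -0.58 ± 0.09, adjusted p = 0.00561, edgeR). The catalytic Atp5b (-0.24) and Atp5a1 (-0.34) fell less than Atp5k in point estimate, and this difference was not tested. With 1 library left out the number called ran from 26 (without HFCF control female 1) to 68 (without HF control female 1). It was 66 without HFCF control female 3, 27 without HFCF control female 2, 34 without HFCF control female 5, and 30, 28 and 34 without HF control females 2, 3 and 4, while the median stayed between -0.38 and -0.31. The shares of all genes called in these fits are not given here.

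In males labelled knockout, the same diet comparison called 60 of 78 members lower and none higher, where 20.0% of all genes were called lower. The median was -0.29 (all genes -0.02), and 77 of 78 were negative. The HFCF libraries were all below the HF libraries for 27 members, against 8.75% of all genes. The called members were 27 of 35 in complex I (median -0.32), 4 of 4 in complex II (-0.30), 6 of 8 in complex III (-0.29), 8 of 12 in complex IV (-0.19) and 14 of 17 in complex V (-0.29), and Ndufa4. Ndufb11, an accessory subunit of the membrane arm of complex I, ranged over 92.7 to 123 (median 109.6) CPM on HF and 71.8 to 86.1 (median 76.7) CPM on HFCF. The ranges did not meet (log2 -0.47 ± 0.07, adjusted p = 7.46e-05, edgeR), and the gene overlaps Rbm10. Ndufb10 fell by a like amount, from 99.6 to 118 (median 107) CPM to 70.5 to 95.03 (median 74.8) CPM (log2 -0.47 ± 0.07, adjusted p = 0.000156, edgeR). Atp5h, subunit d of the ATP synthase stalk, had the smallest p of complex V (log2 -0.44 ± 0.06, adjusted p = 4.50e-05, edgeR). Ndufs8 (-0.43), Ndufs7 (-0.40), Sdhd (-0.34), Uqcrh (-0.36), the hinge protein of complex III, and Cox6c (-0.32) were lower as well. The largest estimate was that of Cox7a1, the heart and muscle form of subunit 7a, at -0.76 ± 0.28 (adjusted p = 0.04, edgeR). Its level was only 1.02 to 2.33 (median 1.497) CPM on HF and 0.574 to 1.75 (median 0.888) CPM on HFCF, with overlapping ranges, and the call held in 3 of 12 fits that left out 1 library (without HF labelled knockout male 1 or 2 or HFCF labelled knockout male 6) and was lost in the other 9.

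In control males 10 members were called lower, where 9.31% of all genes were, so that the share of members called (10 of 78) was near the background. Of the 78, 77 had a negative sign and the median was -0.16 (all genes 0.01). Only Cox7b had all HFCF libraries below all HF libraries, 1 of 78 against 2.75% of all genes. Cox7b, a small subunit of complex IV, ranged over 106 to 119 (median 113) CPM on HF and 84.98 to 101 (median 90.99) CPM on HFCF (log2 -0.27 ± 0.06, adjusted p = 0.00376, edgeR). Sdhd ranged over 167 to 191 (median 187) CPM on HF and 129.8 to 171 (median 141) CPM on HFCF, where the highest value was that of library 1 (log2 -0.31 ± 0.07, adjusted p = 0.00464, edgeR). The others called were Atp5g1 (-0.29), Ndufa6 (-0.25), Ndufa9 (-0.23), Ndufb10 (-0.23), Ndufb9 (-0.22), Ndufb11 (-0.19), Ndufa2 (-0.17) and Ndufa7 (-0.19). In the 12 fits that left out 1 library, the call of Ndufb10 held in 1, that of Ndufa9 in 7 and that of Ndufa6 in 10. The calls of Cox7b, Sdhd, Atp5g1 and Ndufb9 held in all 12. Without HFCF control male 1, 62 of 78 members were called lower and the median was -0.21, with 17.4% of all genes called lower in the same fit. By complex these were 31 of 35, 4 of 4, 7 of 8, 7 of 12 and 13 of 17 from complex I to V. HFCF control male 1 had the highest member sum of its group, so leaving it out lowers the HFCF mean by construction. Leaving out another library gave 4 to 9 called members, with 4 without HFCF control male 4 or 5, 5 without HFCF control male 6 or HF control male 2 or 5, and 6 without HFCF control male 3.

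In females labelled knockout no member was called between HFCF and HF in any direction, where 14.5% of all genes were called, 0 of 79 tested passed an unadjusted p of 0.05 (edgeR), and DESeq2 called 0. The median was -0.04 (all genes -0.01). For Ndufs3 the HFCF values were 125, 70.1, 73.8 and 72.7 CPM and the HF values 105, 105, 103 and 104 CPM. The first HFCF library was above every HF library and the other 3 below. Without it, 28 of 79 members were called lower and the median was -0.20, with 13.97% of all genes called lower in the same fit. The 28 were 14 of 35 in complex I, 3 of 4 in complex II, 3 of 8 in complex III, 0 of 13 in complex IV and 8 of 17 in complex V. HFCF labelled knockout female 1 had the highest member sum of its group, so leaving it out lowers the HFCF mean by construction.

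**Figure D2:**
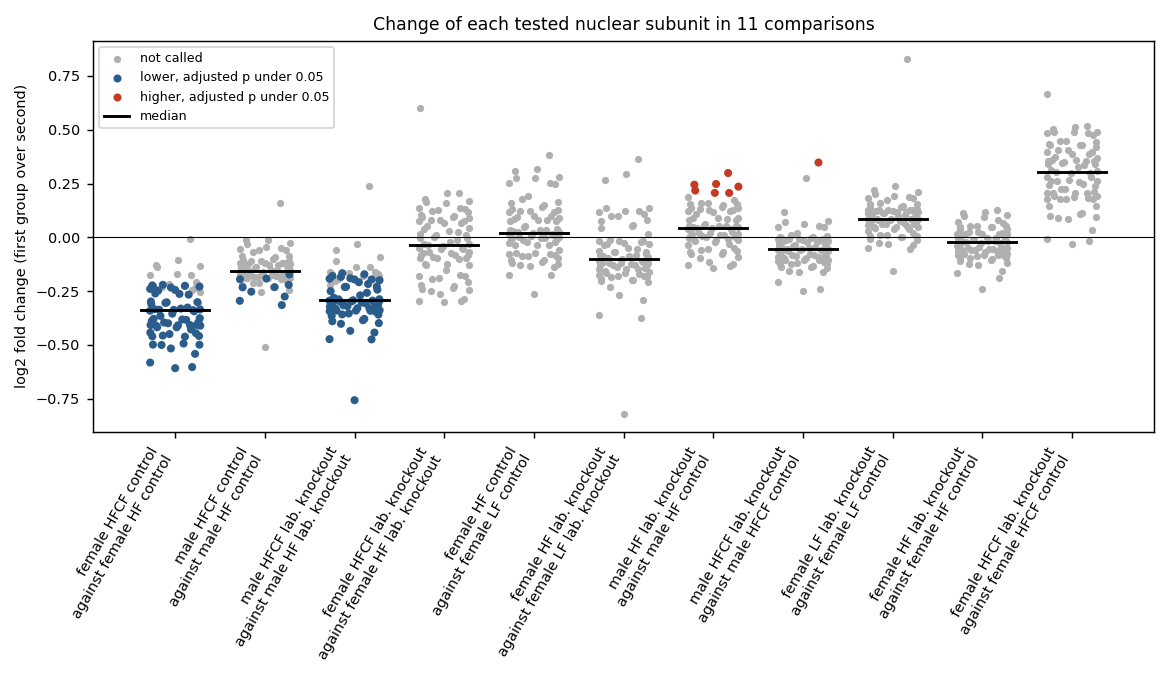
Log2 fold change (vertical axis) of each tested member in 11 comparisons of 2 groups, 1 point per gene, blue where called lower, red where called higher and grey where not called (adjusted p, edgeR); lines are medians. The medians of HFCF against HF lie at -0.34 in control females, -0.16 in control males and -0.29 in males labelled knockout, and at -0.04 in females labelled knockout.

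Control females and males labelled knockout share no library, so their calls could be set side by side. Of the members called lower, 53 were common to both, which is 86.9% of the female list and 88.3% of the male list. Lists that each hold most of the members tested must overlap largely, so these shares are a description. The 10 called in control males were in both lists as well. Tested members that were called in neither included Cox7a2 and Cox7a2l, the liver form of subunit 7a and the supercomplex factor related to it, Atp5s, Ndufb2 and Ndufa4l2. Cox7a2 had log2 fold changes of -0.10 ± 0.08 in control females and -0.16 ± 0.07 in males labelled knockout (adjusted p = 0.343 and 0.0615, edgeR). Cox8a was called lower in females (-0.25 ± 0.08) but had -0.09 ± 0.07 in the males (adjusted p = 0.285, edgeR), a difference that was not tested.

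**Figure D3:**
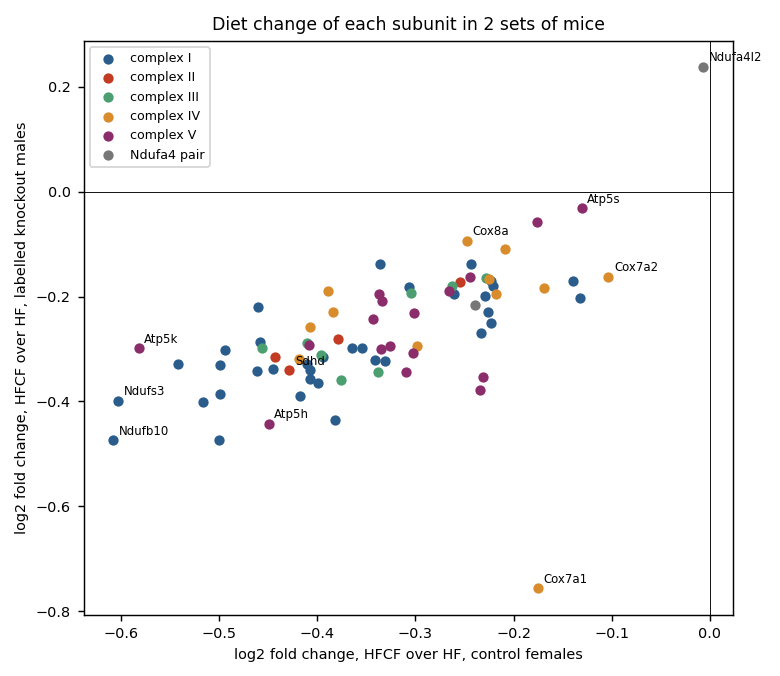
Log2 fold change of each member on HFCF over HF in control females (horizontal axis) and in males labelled knockout (vertical axis), coloured by complex. All points but Ndufa4l2 lie below 0 on both axes, with Ndufb10 at -0.61 and -0.47 and Cox7a1 lowest in the males at -0.76.

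These diet changes are relative to the scaling. The TMM factors of the HFCF groups had medians of 1.08 to 1.11, against 0.931 to 0.998 on HF, and scaling by library size alone moved the median of all genes by 0.17 in control females, 0.12 in control males and 0.18 in males labelled knockout. On that scale the members called were 13 lower in control females (median -0.15), 3 in control males (median -0.04) and 10 in males labelled knockout (median -0.09). The medians of the members were thus below those of all genes on both scales. With TMM the counts were 61, 10 and 60. As shares of the members tested, the 13, 3 and 10 were near or below the 13.8%, 9.31% and 20.0% of all genes called lower with TMM. The share of all genes called lower by library size alone is not given here. In females labelled knockout the sign of the members' median turned, from -0.04 to 0.11, with all genes at 0.15.

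Markers of the cell types moved with the same contrast. In control females 4 of 6 hepatocyte markers fell (median -0.55), and their sum was 53782 to 66586 CPM on HFCF against 88709 to 106462 CPM on HF. Macrophage markers rose for 5 of 6 (sum 591 to 772 CPM on HFCF, 213 to 338 CPM on HF), cholangiocyte markers for 4 of 4 and stellate cell markers for 1 of 5 (sum 719 to 1156 CPM against 165 to 699 CPM). Of all genes, 2490 of 14701 were called higher there, so the stellate count was near the background. The genes called higher were 3095 of 14314 in males labelled knockout and 1877 of 14475 in control males. In males labelled knockout all 6 hepatocyte markers fell (median -0.60, sum 54012 to 65377 CPM against 89632 to 104099 CPM), 5 of 6 macrophage markers rose (448 to 717 CPM against 223 to 324 CPM) and 4 of 5 stellate cell markers rose (486 to 938 CPM against 259.7 to 359 CPM). In control males 3 of 6 hepatocyte markers fell (median -0.32, sum 38497 to 62086 CPM against 61235 to 85227 CPM), and 5 of 6 macrophage and 4 of 5 stellate cell markers rose. The 62086 CPM was that of HFCF control male 1, the others reaching 56247 CPM at most. Its stellate cell markers summed to 489 CPM, against 923 to 1015 CPM in the others. These counts are given with that library included. In females labelled knockout none of the 6 hepatocyte markers was called with all libraries (median -0.41) and all 6 fell without HFCF labelled knockout female 1 (median -0.59). The part of these shifts in the change of the subunits was not tested. In whole liver, fewer hepatocytes and less subunit RNA per hepatocyte cannot be told apart.

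The other genes of the pathway were examined from lists that were also chosen with earlier results of these data known. The counts of these lists stand beside the 13.8%, 9.31% and 20.0% of all genes called lower in control females, control males and males labelled knockout. The 13 subunits encoded in the mitochondrial genome were lower in 1 of 13 in control females (median -0.29), 2 in control males (-0.18) and 4 in males labelled knockout (-0.10), counts that are below or near these shares for so few genes, and none rose. Those named were mt-Co3 (-0.91 in control females, -0.59 in males labelled knockout), mt-Nd3 (-0.58 in males labelled knockout) and mt-Cytb (-0.27 in control males). In control males mt-Nd5 was called as well. The counts of mt-Co3 and mt-Nd3 were low for mitochondrial transcripts. Their means over all libraries were 41.1 and 10.7 CPM, against 15915 CPM for mt-Co1 and 7592 CPM for mt-Cytb. The reason for these low counts was not tested. Electron carriers and subunits outside the name rule fell in 5 of 8 in control females, 1 of 8 in control males (Etfdh) and 6 of 8 in males labelled knockout, led in the first and last by Etfb, the β subunit of the electron transfer flavoprotein, at -0.74 and -0.60. Among 44 tested assembly factors 18 fell in control females, 5 in control males and 19 in males labelled knockout, where 1 rose. Ecsit, a complex I assembly factor, fell in these 3 comparisons (-0.68, -0.33 and -0.55), and Ndufaf4 fell in control females (-0.66). Regulators of mitochondrial biogenesis fell in 8 of 15, 5 of 15 and 4 of 15, the last near the share of all genes. Tfam, which packages and transcribes mitochondrial DNA, fell in control females (-0.50), control males (-0.28) and males labelled knockout (-0.26). The coactivator genes Ppargc1a (-0.44) and Ppargc1b (-0.56) fell in control males, while Pprc1, a related coactivator, rose in males labelled knockout (0.32). The citric acid cycle fell in 8, 4 and 6 of 13 genes, with Idh3a at -0.60 in control females and Fh1, fumarate hydratase, at -0.55 in males labelled knockout, where Cs, citrate synthase, rose (0.27).

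The proteins of the mitochondrial ribosome, which translates the mitochondrial subunits, had 37 of 77 that fell in control females (median -0.30) and 49 in males labelled knockout (median -0.26), where 1 rose. In control males 5 of 77 fell (median -0.09), a share below the 9.31% of all genes. Mrps35 fell in control females (-0.74) and in males labelled knockout (-0.46). Cytosolic ribosomal proteins, which are also short and abundant transcripts, were counted for comparison. Of 77 tested in control females 1 rose and 0 fell, of 76 in control males 21 rose and 0 fell, and of 77 in males labelled knockout 1 rose and 17 fell. The share of all genes called higher in control males was 1877 of 14475, and the 17 of 77 lie near the 20.0% of all genes called lower in males labelled knockout. The list rule also took in 9 Rps6k genes, which are kinases and not ribosomal proteins, and those were counted apart after their values were seen. In females labelled knockout, HFCF against HF with all libraries, 5 of 15 regulators fell, where 881 of 14650 genes were called lower. Among them were Ppargc1b (-0.77) and Gabpa (-0.44), which overlaps Atp5j. Called genes of other lists included the assembly factors Cox19, Ndufaf4 and Foxred1 and the mitochondrial ribosome genes Mrpl54 and Mrpl16. No gene of the citric acid cycle and none of the 13 mitochondrial subunits was called.

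**Figure D4:**
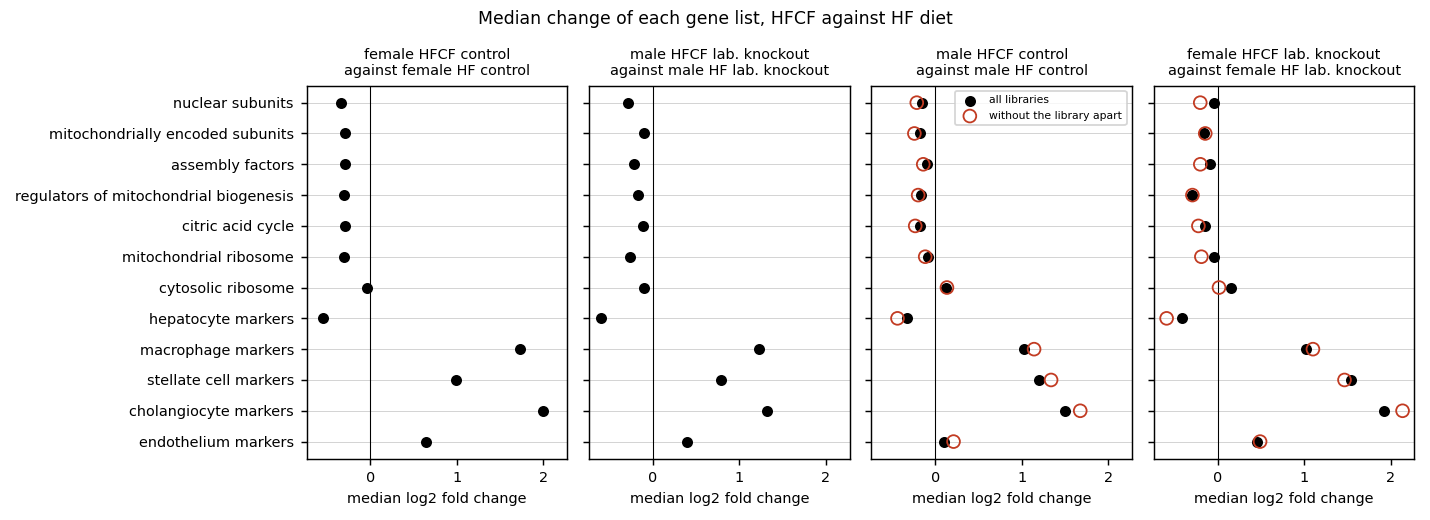
Median log2 fold change (horizontal axis) of each gene list in the 4 comparisons of HFCF with HF, black for all libraries and red circles without the library apart (HFCF control male 1 or HFCF labelled knockout female 1). The mitochondrial lists lie below 0 with the hepatocyte markers, and the macrophage, stellate cell and cholangiocyte markers lie above 0.

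Labelled knockout was compared with control within each sex and diet. In HF males 7 members were called higher and none lower, where 8.57% of all genes were called higher, so the share of members (7 of 78) was near the background. The 7 were Ndufb10, Atp5g1, Atp5h, Ndufs8, Atp5l, Uqcrb and Ndufb11. Ndufb10 ranged over 99.6 to 118 (median 107) CPM in the labelled knockout and 84.01 to 90 (median 86.3) CPM in the controls, without overlap (log2 0.30 ± 0.05, adjusted p = 0.00111, edgeR). The others rose by 0.21 to 0.25 on the log2 scale. In the 12 fits that left out 1 library, the call of Atp5l held in 6 and that of Uqcrb in 8. Those of Ndufb10, Atp5g1, Atp5h and Ndufs8 held in all 12. The median of the members was 0.04 (all genes 0.00). This direction depended on the scaling: with library size alone 1 member was called higher and 6 lower, and the medians were -0.05 for the members and -0.09 for all genes. The share of all genes called with that scaling is not given here. In the fit of all 10 groups together none was called, and 4 were called without HF control male 1 or 3 or HF labelled knockout male 5. Hepatocyte markers rose for 5 of 6 in the same comparison (median 0.38), stellate cell markers fell for 3 of 5, and blood markers rose for 3 of 5 (median 1.48, summed level 164 to 817 CPM against 166 to 247 CPM). Of all genes, 8.57% were called higher there and 1387 of 14041 lower. The part of these markers was not tested.

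Atp5g1 was the only member called in both male comparisons, and in HFCF males it was the only one, where 0.933% of all genes were called higher. Atp5g1, Atp5g2 and Atp5g3 are paralogs that encode the same mature c-ring subunit of the ATP synthase with different import sequences. In HF males Atp5g1 (ENSMUSG00000006057, chromosome 11, 96068852 to 96075670, minus strand) ranged over 128 to 138 (median 131) CPM in controls and 138 to 174 (median 156) CPM in the labelled knockout (log2 0.25 ± 0.06, adjusted p = 0.00784, edgeR). The highest control and the lowest labelled knockout library overlapped by less than 1 CPM. In HFCF males it ranged over 99.1 to 131 (median 103) CPM in controls, of which library 1 was highest, and 115 to 157 (median 136) CPM in the labelled knockout (log2 0.35 ± 0.08, adjusted p = 0.0377, edgeR). The ranges overlapped there through control library 1 alone, the other 5 controls lying below every labelled knockout library. The call held in 3 of 12 fits that left out 1 library, which included the fit without HFCF control male 1, and was lost without any of HFCF control males 2 to 6 or labelled knockout males 1, 4, 5 and 6. The paralogs gave 0.09 ± 0.05 (Atp5g2) and -0.01 ± 0.06 (Atp5g3) on HF and -0.04 ± 0.05 and -0.09 ± 0.09 on HFCF, none of them called.

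The share of Atp5g1 among the 3 c-ring genes, in CPM per kilobase, does not depend on the library scaling. It is given as a description and was chosen after the values were seen. On HF it was 11.3% to 12.3% (median 11.6%) in control males and 12.5% to 14.4% (median 13.5%) in males labelled knockout. On HFCF it was 10.2% to 11.2% (median 10.8%) and 13.3% to 14.4% (median 13.95%). On each diet all 6 labelled knockout males lay above all 6 control males, library 1 included. In females the groups overlapped, with 12.8% to 13.8% (median 13.3%) in HF controls against 12.6% to 13.98% (median 13.7%) in the labelled knockout, and 12.8% to 14.5% (median 13.5%) against 13.7% to 15.1% (median 14.9%) on HFCF. In the test of whether the labelled knockout effect on Atp5g1 differed between sexes on HF, the log2 difference was 0.28 ± 0.09 (males minus females, adjusted p = 0.352, edgeR), the smallest p of the members and not past the threshold.

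**Figure D5:**
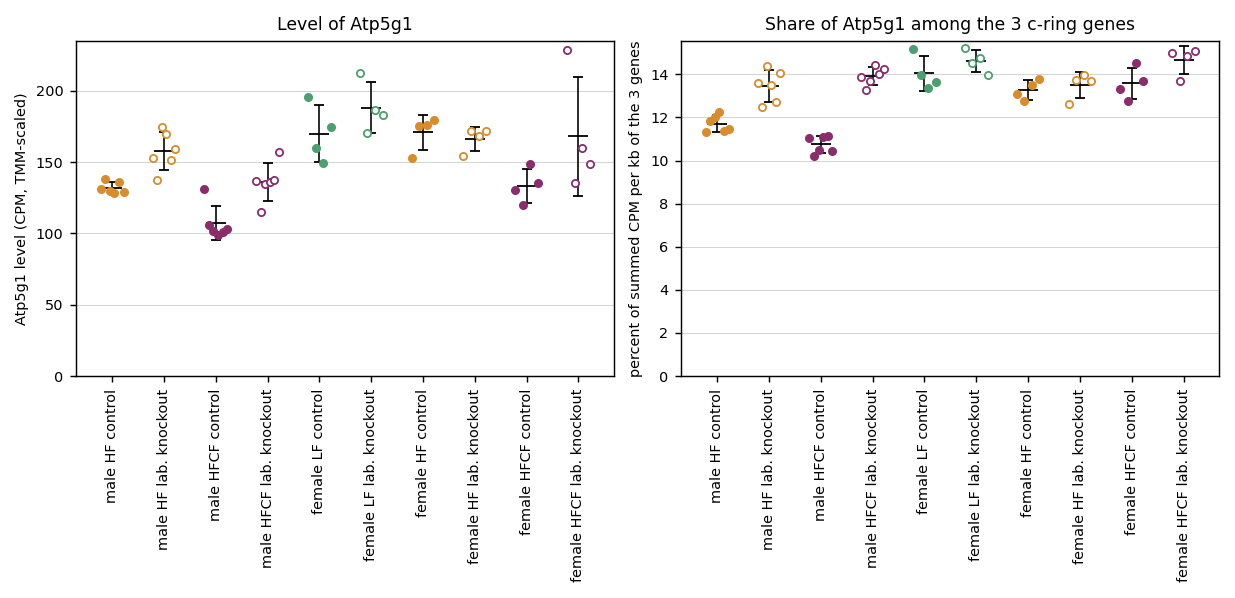
Level of Atp5g1 (left, CPM) and its share of the summed CPM per kilobase of Atp5g1, Atp5g2 and Atp5g3 (right, percent) in each library, filled for controls and open for labelled knockout, with mean ± SD. On the right the labelled knockout males sit above the control males on both diets, while the female groups overlap.

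In females the labelled knockout gave no called member on any diet, by edgeR on the groups compared or by DESeq2, while the edgeR fit of all 10 groups called 7 higher on HFCF. The share of all genes called in the fit of all 10 groups is not given here. On LF and on HF 0 of 78 were called and 0% of all genes, with 1 of 78 at an unadjusted p under 0.05 in each. On HFCF 0 of 79 were called, where 0.0534% of all genes were, but 25 had an unadjusted p under 0.05, 76 were positive and the median was 0.30 (all genes 0.00). Without HFCF labelled knockout female 1 the median was 0.11 and 14 had an unadjusted p under 0.05. The share of all genes at this unadjusted threshold is not given here, so these counts have no background beside them. For Atp5k, the values were 72.04, 34.2, 49.04 and 39.95 CPM in the labelled knockout and 35.4, 30.8, 27.5 and 31.8 CPM in controls (log2 0.66 ± 0.21, adjusted p = 0.51, edgeR). Labelled knockout female 2 lay inside the range of the controls and female 1 was the highest of all.

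The HF diet against the LF diet, which exists for females alone, gave no called member. In control females 0.696% of all genes were called and in females labelled knockout 0.155% (edgeR), while DESeq2 called 4 members higher in controls and 1 lower in the labelled knockout. Members with an unadjusted p under 0.05 numbered 7 in controls, all with positive values, and 6 in the labelled knockout. Neither the share of all genes at that threshold nor the share called by DESeq2 is given here. In controls the smallest adjusted p was that of Ndufs1, the largest iron-sulfur subunit of complex I, at 0.0529 (edgeR). It measured 93.2, 95.5, 102 and 104 CPM on LF and 123, 128, 128 and 137 CPM on HF, without overlap (log2 0.38 ± 0.07). The gene overlaps Eef1b2, which has more reads. Sdha (log2 0.31), Uqcrc2 (0.28), Ndufa10 (0.28), Ndufv1 (0.28), Atp5a1 (0.25) and Uqcrc1 (0.25) followed. Across the 78 members, which share libraries and are not replicates, the log2 change correlated with log2 transcript length at r = 0.29 (all genes 0.08). In females labelled knockout on HF against LF, over 78 members, it was 0.44 (all genes 0.06). Over 79 members it was -0.37 in HFCF females, labelled knockout against control (all genes -0.25), -0.45 in females labelled knockout on HFCF against HF (all genes 0.07) and -0.42 for labelled knockout by diet in females (all genes -0.09). These comparisons share libraries, and the negative values of the members all include HFCF labelled knockout female 1, which stood apart. Values without that library are not given here, so its part in them was not separated.

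Whether an effect differed between diets or sexes was tested directly, and no member passed in any of 4 interaction tests by edgeR or by DESeq2. For labelled knockout by diet in males, 0 of 78 were called (all genes 1.56%), 14 had an unadjusted p under 0.05 and the smallest p was that of Atp5l, ATP synthase subunit g, at -0.33 ± 0.11 (adjusted p = 0.0987, edgeR), followed by Uqcrh, Ndufb11 and Atp5h. For labelled knockout by sex on HF, 0 were called (all genes 0%) and 5 had an unadjusted p under 0.05. For the change from HF to HFCF by sex in controls, 0 were called (all genes 0.00646%), although 75 of 78 were positive, that is, less negative in males, with a median of 0.19, and 22 had p below 0.05 before adjustment. Atp5k had the smallest p, with a log2 difference of 0.41 ± 0.13 (adjusted p = 0.199, edgeR). Without HF control female 1, 14 members passed, among them Atp5k, Atp5g2, Ndufs3 and Ndufb7. The share of all genes called in that fit is not given here. HF control female 1 had the lowest member sum of its group, so leaving it out raises the HF female mean by construction. Labelled knockout by diet in females, HFCF against HF, was added after the data were seen: 0 of 79 were called (all genes 0%), the median was 0.34 and, without HFCF labelled knockout female 1, 0.11. The counts at an unadjusted p under 0.05 in these interaction tests stand without the share of all genes at that threshold.

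Forms of the subunits that are typical of other tissues were close to absent. Cox8b, the muscle and brown fat form of subunit 8, had 40 reads over 48 libraries and 0 reads in 27 of them. Cox6a2, the muscle form of subunit 6a, had 115 reads and overlaps Itgad, which has more. Cox4i2, the lung form of subunit 4, had 157 reads, and Cox6b2, the testis form of subunit 6b, had 352. These 4 were the members under 1 CPM, and Cox7b2, Cox8c and Uqcrhl were not among the members. Per kilobase, Cox4i2 made up at most 0.300% of the Cox4i pair and Cox6b2 at most 0.373% of the Cox6b pair in any library. Cox7a1 was the one muscle form above 1 CPM, at 0.436% to 2.89% of the Cox7a1, Cox7a2 and Cox7a2l sum, and its values in LF control females were 0.576, 2.28, 1.81 and 0.98 CPM against 3.25, 2.004, 2.33 and 2.27 CPM in the LF labelled knockout. The groups overlap, and no call was made. Ndufa4l2, a paralog known to be induced by hypoxia, made up 1.03% to 2.27% of the Ndufa4 pair, lies over the far more abundant Shmt2, and had group means of 2.11 to 2.66 CPM with no call in any comparison.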

How the data were processed

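Whole-liver RNA was sequenced from 48 mice in 10 groups, with libraries that did not mark strand. Reads were aligned with STAR 2.6.1 to GRCm38 (mm10) and counted with HTSeq 0.6.1, and DESeq2 was named with version 2, per the submitters' processing notes. Per the file headers, the authors deposited 11 tables, each with a raw read count per gene and library, a normalised signal that equalled the count over 1 factor per library, FPKM values, and the authors' log2 fold changes with p-values and adjusted p-values. Only the raw counts entered the tests. They were joined by gene identifier, and 0 of the 1341082 count values repeated between tables differed. No column was without a sample.

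Groups came from the labels, and each replicate is a separate mouse there. Each comparison used only its own groups in edgeR 4.0.16 (R 4.3.3) with TMM scaling, the default filter on low counts and the quasi-likelihood test, Benjamini-Hochberg adjusted over all genes tested, and a gene was called at an adjusted p under 0.05. A log2 fold change is the first group over the second. The scripts were tested on simulated data. DESeq2 1.42.0, other filters and scalings, a fit of all 10 groups, a replicate block and fits leaving out each library were alternatives. Same-numbered libraries did not deviate together in every pair of any comparison, so the numbers were not taken to pair mice. The named members are the isoform families, the highest and lowest per kilobase of each complex, up to 6 called per direction, the smallest p of each complex, up to 4 per interaction and up to 3 per other list, and a few named beyond that were chosen after their values were seen. The members and lists were chosen with earlier results of these data known. Promoters came from RefSeq.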

Additional observations from a re-analysis of the deposited data

Results flagged for a closer look

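In 60 sets of libraries, formed by 10 groups and the summed CPM of the 5 complexes or of all members, the gap between an extreme library and its nearest neighbour was tested by Dixon's criterion. It marked 9 sets, where chance marks about 1 in 20 of independent sets. These sets share libraries, and the sum of all members contains the complexes, so 1 odd library can mark several. The 9 is therefore not to be set against that rate. For complex I, HFCF control male 1 was highest at 2641 CPM (next 2183), HFCF labelled knockout male 6 was highest at 2351 CPM (next 2079), and HF control female 1 was lowest at 2406 CPM (next 2888). For complex II, HFCF control male 1 was highest at 1249.5 CPM (next 1001), HFCF labelled knockout male 6 was highest at 1123 CPM (next 964), HFCF labelled knockout female 1 was highest at 1330.3 CPM (next 941), and LF control female 3 was lowest at 912 CPM (next 1066). For complex III, HF labelled knockout female 3 was lowest at 1335 CPM (next 1423). Over all members, HF control female 1 was lowest at 11152 CPM (next 12703). Of the 9, 5 fell on the 3 libraries given as standing apart in the report.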

How the results depend on the processing

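In HF males, labelled knockout against control, library size alone gave 1 member higher and 6 lower in place of 7 higher. No log2 change of a named member was reversed by an alternative. Library size alone, chosen after seeing the data, called 13 members in control females, 3 in control males and 10 in males labelled knockout (HFCF against HF), 3 in HFCF males labelled knockout against control, and 1 in control females on HF against LF. The fit of all 10 groups called 0 in HF males and 7 in HFCF females (labelled knockout against control), and 1 in females labelled knockout on HF against LF. DESeq2's Wald test called 20 in control males (HFCF against HF), 2 in HFCF males labelled knockout, and 4 and 1 on HF against LF in control and labelled knockout females. A minimum of 10 counts in every library called 1 in control females on HF against LF. The replicate block, used where groups share numbers, called 0 in control females on HFCF against HF, where only 3 numbers are shared, and 0 in HFCF males labelled knockout, and moved no other count by over 1.5 times. The cause was not tested. With 1 library left out the members called ran from 26 to 68 in control females, 4 to 62 in control males, 50 to 66 in males labelled knockout and 0 to 28 in females labelled knockout (HFCF against HF), 4 to 10 in HF males and 0 to 1 in HFCF males (labelled knockout against control), 0 to 1 for labelled knockout by sex and 0 to 14 for diet by sex. Among 50 values for named members, 18 lost the call with library size alone, 11 with the replicate block, 9 in the fit of all groups and 0 with DESeq2. The 50 include the interaction values, none of which was called, so the losses fall on the smaller number that had a call. Members under 1 CPM were mostly not testable at this depth. Except where stated, the share of all genes called in each alternative fit is not given here.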
